A study of Mus musculus with 12 samples.

Results

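The dystrophin-glycoprotein complex and its associated genes were described in mouse left ventricle after myocardial infarction. The genes were chosen by name, as the 8 symbols Dmd, Utrn, Dag1, Sgca, Sgcb, Sgcd, Dtna and Dysf. All 8 were listed among the 18050 genes of the deposited table, and all 8 passed the filter on low counts. RNA had been taken at day 7 after surgery from ventricles of wild type mice, either sham operated or given MI, taken here to stand for myocardial infarction, in which heart muscle dies for lack of blood. There were 6 libraries per group, and all 12 were labelled heart and wild type, with no strain, sex or age in the labels used here. The submitters' processing notes differ between replicates 1 and 2 and replicates 3 to 6, which are treated as 2 sets, and MI was compared with sham within each set as well as over both.

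The complex links the actin cytoskeleton of the muscle fibre to the basement membrane. Dystrophin (Dmd) binds actin inside the cell and the transmembrane dystroglycan (Dag1), whose outer part binds laminin. The sarcoglycans (Sgca, Sgcb and Sgcd here) form a membrane subcomplex that steadies this link, and dystrobrevin (Dtna) with the syntrophins forms the cytoplasmic arm that docks signalling proteins. Utrophin (Utrn) is a close relative of dystrophin found in many cell types. Dysferlin (Dysf) is a calcium-sensing membrane protein of sarcolemmal repair that is not a subunit of the complex. Loss of Dmd, Sgcb or Sgcd is a known cause of cardiomyopathy.

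RefSeq start sites (GRCm38.p6) were available for 7 of the genes, in 10 entries of 300 bases each, running from 250 bases before to 50 bases after a start. The windows below are shown because counts here are summed per gene, so that the starts of Dmd cannot be separated, and because Sgca and Dysf had the largest differences between the sets. Capitals mark an E-box (CANNTG), a GC box (GGGCGG), a CArG box or a MEF2 motif, each searched on both strands.
Dmd, upstream start: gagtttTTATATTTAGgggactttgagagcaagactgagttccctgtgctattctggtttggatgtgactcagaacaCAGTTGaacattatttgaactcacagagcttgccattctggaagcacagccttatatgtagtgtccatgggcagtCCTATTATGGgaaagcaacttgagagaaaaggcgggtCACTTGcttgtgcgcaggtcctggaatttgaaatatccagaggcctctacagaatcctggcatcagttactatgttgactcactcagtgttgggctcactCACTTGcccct
Dmd, internal start: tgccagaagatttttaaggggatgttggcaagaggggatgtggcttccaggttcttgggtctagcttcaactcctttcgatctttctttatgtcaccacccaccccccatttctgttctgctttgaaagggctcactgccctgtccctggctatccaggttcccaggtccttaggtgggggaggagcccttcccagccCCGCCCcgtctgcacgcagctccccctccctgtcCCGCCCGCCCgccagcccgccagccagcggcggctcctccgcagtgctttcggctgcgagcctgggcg
Sgca: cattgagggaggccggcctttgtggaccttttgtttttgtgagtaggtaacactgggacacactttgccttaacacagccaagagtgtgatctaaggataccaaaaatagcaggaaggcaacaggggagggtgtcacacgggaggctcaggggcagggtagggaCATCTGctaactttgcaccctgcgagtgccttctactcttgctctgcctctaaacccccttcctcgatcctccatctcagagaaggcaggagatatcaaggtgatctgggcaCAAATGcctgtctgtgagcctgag
Dysf, upstream start: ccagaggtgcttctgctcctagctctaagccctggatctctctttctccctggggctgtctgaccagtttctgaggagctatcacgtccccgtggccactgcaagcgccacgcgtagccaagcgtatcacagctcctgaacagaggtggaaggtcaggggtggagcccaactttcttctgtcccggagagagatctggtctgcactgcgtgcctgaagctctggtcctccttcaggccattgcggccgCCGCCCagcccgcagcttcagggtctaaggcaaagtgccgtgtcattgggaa
The windows lie at chrX:82948620-82948919 (plus strand) and chrX:85048045-85048344 (plus) for Dmd, at chr11:94976278-94976577 (minus) for Sgca and at chr6:84008348-84008647 (plus) for Dysf. The upstream Dmd window held 2 CpG dinucleotides, 3 E-boxes, 1 CArG box and 1 MEF2 motif. The internal Dmd window held 14 CpG dinucleotides and 3 GC boxes, of which 1 pair overlaps, and none of the other motifs. The Sgca window held 4 CpG dinucleotides and 2 E-boxes, and the Dysf window 13 CpG dinucleotides and 1 GC box. Of all 32851 RefSeq windows of this length, 72.3% held an E-box, 35.7% a GC box, 1.63% a CArG box and 3.19% a MEF2 motif, and the median window held 7 CpG dinucleotides. These are matches of letters and were not tested as binding sites.

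Expected counts summed to between 9140353 and 18602226 per library. Libraries 3 to 6 of each group varied much less among themselves than libraries 1 and 2, with a biological coefficient of variation (the spread between libraries beyond counting noise) of 0.0293 in sham and 0.0207 in MI against 0.112 and 0.192. The labels do not say that libraries came from separate animals, so p-values reflect the spread between libraries alone, and that spread may be technical. A gene is said here to have risen or fallen only when it was called the same way by edgeR's quasi-likelihood test over 12 libraries and by the same test with replicates 3 to 6 summed into 1 library per group, called the 3-against-3 test below (Benjamini-Hochberg adjusted p under 0.05 over all genes in each). The MI libraries of replicates 3 to 6 stood apart from the other 8. Copies Hbb-bs and Hbb-bt made 0.115% of their beta-globin counts, against 99.95% in sham of that set, the remainder in each being Hbb-b1 and Hbb-b2. These pairs are alternative haplotypes carried by different mouse strains, and the labels give no strain. For every change in replicates 3 to 6, MI and a difference in strain between the groups therefore cannot be told apart. Summed lung epithelial markers were at 187 to 190 CPM there, against 1.07 to 2.52 CPM in sham, and 0 of the 9 listed were at 0. In replicates 1 and 2 they were at 15.5 to 28.4 CPM in MI and 1.02 to 1.21 CPM in sham, where Sftpc, Sftpa1, Sftpd and Cldn18 were at 0 in MI. The part of the lung transcripts in the changes below was not tested.

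The tissue label held against muscle markers, and the same markers give the setting of every change below. All 14 cardiomyocyte markers listed were found in every group. Their summed level was 128536 to 130250 CPM in sham and 7342 to 12055 CPM in MI in replicates 1 and 2, and 117125 to 119333 against 36335 to 37009 CPM in replicates 3 to 6. Summed fibroblast markers went the other way, from 3329 to 3722 CPM in sham to 58318 to 73965 CPM in MI in replicates 1 and 2, and from 3116 to 3263 to 27826 to 28107 CPM in replicates 3 to 6. In whole tissue, fewer cells of a type and less RNA per cell cannot be told apart.

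After MI 6 of the 8 genes fell and 0 rose, against a background of 29.8% of 13592 genes falling and 28.1% rising. Sgca and Dtna fell furthest, then Sgcd, Dag1, Sgcb and Dmd, while Utrn and Dysf were not called. The median log2 fold change of the 8 genes was -0.57 over 12 libraries, -1.53 within replicates 1 and 2 and -0.19 within replicates 3 to 6, beside 0.01, 0.07 and 0.03 over all genes tested. Each test alone also called 6 lower and 0 higher, the 12-library test against a background of 38% lower and 37.9% higher and the 3-against-3 test against 29.5% and 28.2%. Within replicates 1 and 2, 7 were called lower and 0 higher (background 32.9% lower and 34.1% higher). Within replicates 3 to 6, 5 were called lower and 2 higher (background 39.5% and 42.2%). For Sgca, Sgcb, Sgcd and Dtna all 6 MI libraries lay below all 6 sham libraries in CPM, as they did for 21.3% of genes. Within replicates 1 and 2 the MI libraries lay below sham for 7 of the 8 (40.6% of genes). Within replicates 3 to 6 they lay below for 5 (39% of genes) and above for 2 (37.1%).

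**Figure D1:**
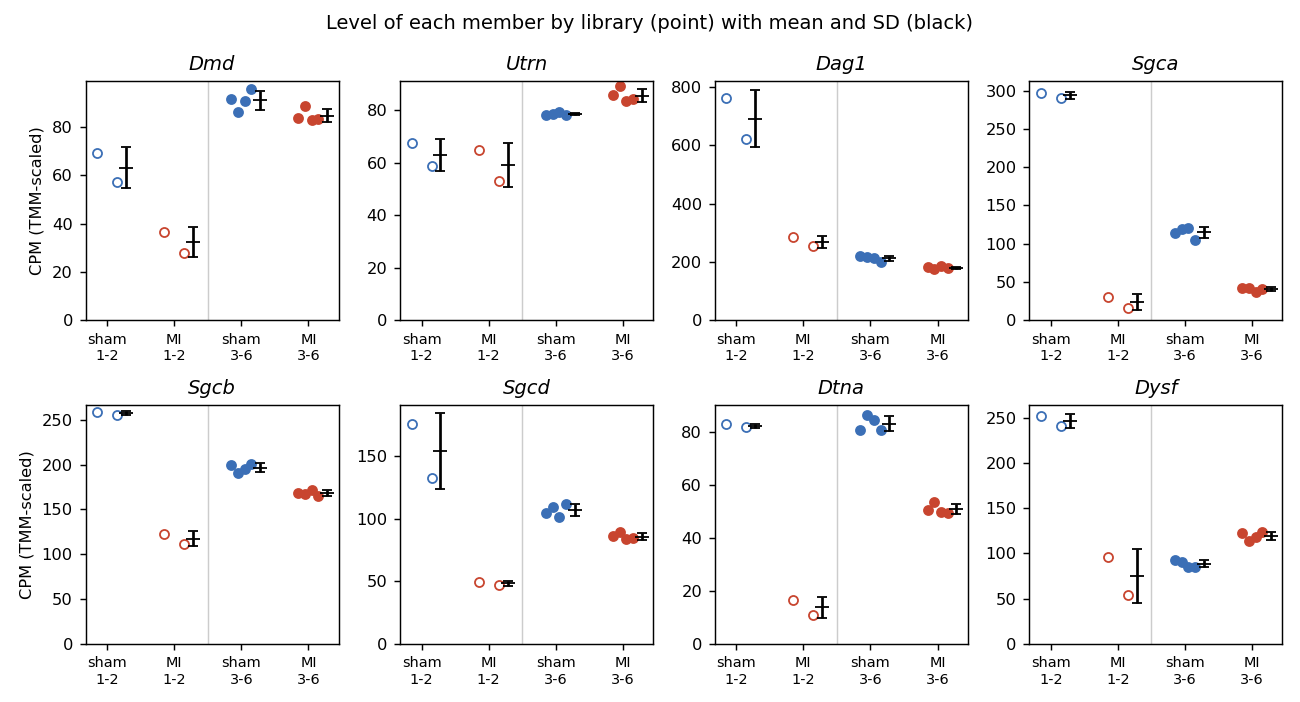
TMM-scaled CPM of the 8 genes in each library (y axis, linear from 0), by group and replicate set (x axis), with sham in blue, MI in red, open points for replicates 1 and 2, filled points for replicates 3 to 6, and the mean and SD in black. Sgca and Dtna are lower in every MI library, whereas Dysf is lower after MI in replicates 1 and 2 and higher in replicates 3 to 6.

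These falls did not all stand under another scaling. TMM scaling sets the typical gene at no change. Under library size alone the median log2 fold change of all genes was 0.42 over 12 libraries, 0.52 within replicates 1 and 2 and 0.38 within replicates 3 to 6. With library size alone Sgca and Dtna still fell, Dmd, Dag1, Sgcb and Sgcd were no longer called by both tests, and Utrn was called higher. In replicates 3 to 6 Dmd (0.29), Dag1 (0.15), Sgcb (0.17) and Sgcd (0.08) then changed sign. The directions given below for these 4 genes in that set therefore hold relative to TMM scaling only. The calls also leaned on replicates 1 and 2, as 3 of the genes were called without sham replicate 1, 2 without sham replicate 2, 1 without MI replicate 1 and 2 without MI replicate 2. Without any 1 library of replicates 3 to 6, all 6 were called.

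**Figure D2:**
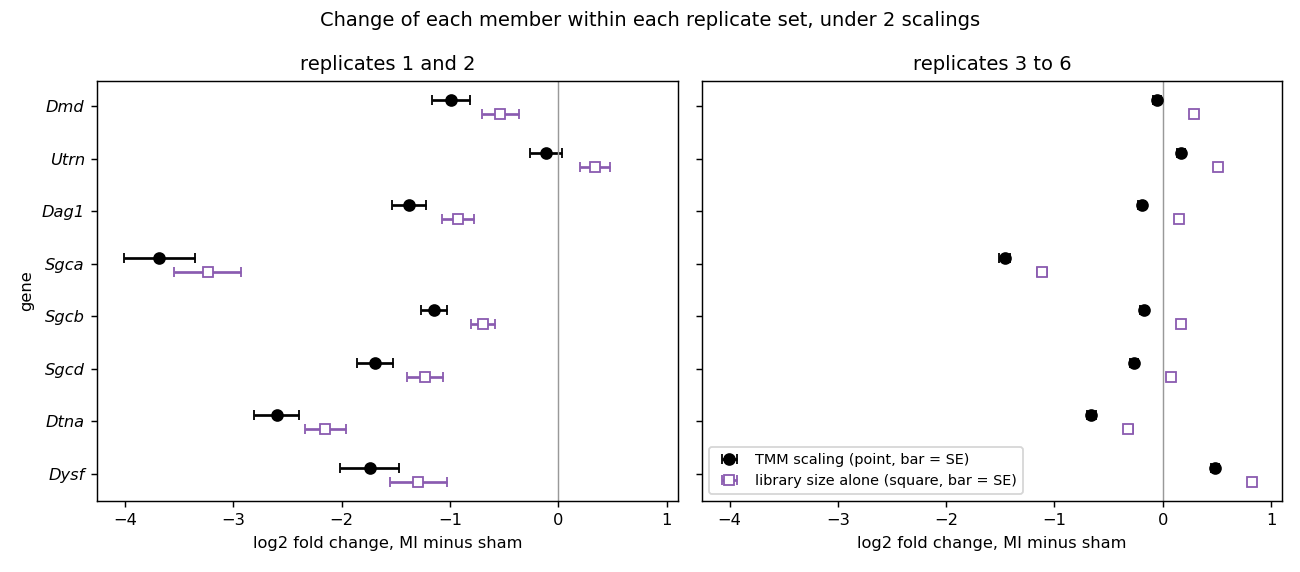
Log2 fold change of MI minus sham (x axis) for each gene (y axis) in replicates 1 and 2 (left) and replicates 3 to 6 (right), under TMM scaling (black points) and library size alone (purple squares), with bars of 1 SE. Under TMM scaling every point lies below 0 in replicates 1 and 2, from -0.11 for Utrn to -3.68 for Sgca. Utrn (SE 0.15) was not called there and its groups overlapped in CPM. Library size alone shifts all points to the right.

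Of the sarcoglycans, alpha-sarcoglycan fell most. Sgca (gene ID 20391; GRCm38 chromosome 11, 94962791 to 94976327, minus strand) encodes a subunit made in striated muscle. It was at 297 and 291 CPM in sham replicates 1 and 2 and at 30.7 and 15.6 CPM in the MI libraries. Libraries 3 to 6 held 114, 119, 121 and 105 CPM in sham and at 42.4, 41.6, 36.8 and 40.5 CPM in MI. The groups did not overlap in either set. Its log2 fold change was -2.20 (SE 0.34, adjusted p = 8.85e-05 by edgeR) over 12 libraries and -2.99 (SE 0.54, adjusted p = 0.00571) in the 3-against-3 test. Within the sets it was -3.68 (SE 0.33) and -1.46 (SE 0.05). Its promoter window, printed above, held 2 E-boxes.

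Sgcb and Sgcd fell less. Sgcb (gene ID 24051; chromosome 5, 73632749 to 73647790, minus strand) encodes the beta subunit on which the sarcoglycan core is assembled. It was at 259 and 256 CPM in sham and 123 and 112 CPM in MI in replicates 1 and 2. The replicate 3 to 6 sham libraries held 190 to 201 CPM and MI libraries 165 to 172 CPM. The sham and MI ranges were apart in both sets, by far more in replicates 1 and 2. The log2 fold change was -0.53 (SE 0.14, edgeR adjusted p = 0.0036) and, in the 3-against-3 test, -0.85 (adjusted p = 0.0195).

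Sgcd (gene ID 24052; chromosome 11, 46896253 to 47988969, minus strand), the delta subunit and partner of beta-sarcoglycan in the core, was at 175 and 132 CPM in sham and 49.6 and 47.1 CPM in MI in replicates 1 and 2. It was, in replicates 3 to 6, at 101 to 112 CPM in sham and 83.5 to 89.1 CPM in MI. Its log2 fold change was -0.76 (SE 0.20, edgeR adjusted p = 0.00431) over 12 libraries and -1.24 (adjusted p = 0.0163) in the 3-against-3 test. Over the 12 libraries the profiles of Sgcb and Sgcd were the closest pair of the 8 genes, with a root mean square difference of 0.18 between their centred log2 CPM.

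Dystroglycan, the laminin receptor, fell by the rule, with a large gap between the sets. Dag1 (gene ID 13138; chromosome 9, 108204634 to 108263958, minus strand) was at 761 and 622 CPM in sham and 284 and 255 CPM in MI in replicates 1 and 2. Libraries 3 to 6 held 218, 218, 212 and 200.5 CPM in sham and 181, 174.5, 184 and 178 CPM in MI. All MI libraries of a set lay below the sham libraries of that set, but the sham libraries of replicates 3 to 6 lay below the MI libraries of replicates 1 and 2. The log2 fold change was -0.61 (SE 0.17, edgeR adjusted p = 0.00574), and -1.01 (adjusted p = 0.0246) in the 3-against-3 test.

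Dystrophin fell and utrophin was not called. Dmd (gene ID 13405; chromosome X, 82948870 to 85206141, plus strand), the actin-binding rod of the complex, was at 69.4 and 57.2 CPM in sham and 36.7 and 27.9 CPM in MI in replicates 1 and 2. It was, in replicates 3 to 6, at 91.9, 86.3, 90.8 and 95.7 CPM in sham and at 83.8, 88.8, 83.1 and 83.6 CPM in MI, so the groups overlapped. Its log2 fold change was -0.39 (SE 0.14, edgeR adjusted p = 0.0233) over 12 libraries, -0.70 (SE 0.23, adjusted p = 0.0402) in the 3-against-3 test, -0.99 (SE 0.18, adjusted p = 0.00375) in replicates 1 and 2 and -0.06 (SE 0.04, adjusted p = 0.18) in replicates 3 to 6. Library size alone put the 12-library value at 0.02, so the fall of Dmd rests on TMM scaling and on replicates 1 and 2. It also rests on counts, since on the length-scaled FPKM the change in replicates 1 and 2 was -0.18 to -0.21 over 3 pseudocounts and was not called (limma adjusted p = 0.227 to 0.265). On deposited TPM the Dmd levels there were 14.1 and 12.2 in sham and 14.1 and 12.6 in MI, which overlapped.

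Utrn (gene ID 22288; chromosome 10, 12382188 to 12869365, minus strand) stayed within a narrow range on TMM-scaled CPM, but not on deposited TPM. It was at 67.4 and 58.8 CPM in sham and 65.0 and 53.0 CPM in MI in replicates 1 and 2, which overlapped. The replicate 3 to 6 sham libraries held 78.2 to 79.2 CPM and MI libraries 83.4 to 89.2 CPM, without overlap. The log2 fold change was 0.05 (SE 0.07, edgeR adjusted p = 0.501) over 12 libraries, and 0.17 (SE 0.04, adjusted p = 0.000131) in replicates 3 to 6 alone. In the 3-against-3 test it was -0.04 (SE 0.14), and 0.40 under library size alone.

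Dystrobrevin alpha fell as the second most affected gene. Dtna (gene ID 13527) binds dystrophin and the syntrophins. It was at 83.0 and 81.9 CPM in sham and 16.5 and 11.0 CPM in MI in replicates 1 and 2, and at 80.7 to 86.5 CPM in sham and 49.6 to 53.6 CPM in MI in replicates 3 to 6. Sham levels were alike in both sets, with 82.4 ± 0.754 CPM (SD, n = 2) and 83.2 ± 2.86 CPM (SD, n = 4), while MI levels were 13.8 ± 3.89 and 50.9 ± 1.85 CPM. The log2 fold change was -1.31 (SE 0.28, edgeR adjusted p = 0.000989) over 12 libraries and -1.98 (SE 0.42, adjusted p = 0.01) in the 3-against-3 test.

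Dysferlin moved in opposite directions in the sets. Dysf (gene ID 26903; chromosome 6, 84008590 to 84211060, plus strand) was at 252 and 241 CPM in sham and 95.8 and 53.6 CPM in MI in replicates 1 and 2. It was, in replicates 3 to 6, at 92.8, 90.5, 85.0 and 85.1 CPM in sham and at 122, 114, 118 and 123 CPM in MI. Every MI library lay below sham in the first set and above sham in the second. The log2 fold changes were -1.74 (SE 0.27, edgeR adjusted p = 0.00226) and 0.48 (SE 0.04, adjusted p = 5.33e-12), and genes called lower in replicates 1 and 2 and higher in replicates 3 to 6 made 1.78% of 13406. Summed markers of skeletal muscle fibres, which also make dysferlin, moved the same way, from 1544 to 2476 CPM in sham to 101 to 308 CPM in MI in replicates 1 and 2 (Myh4 at 0 in MI) and from 533 to 552 to 1302 to 1370 CPM in replicates 3 to 6. In that later set 7 of 8 of them tested were called higher and 0 lower (42.2% and 39.5% of all genes). In replicates 1 and 2 only 5 were tested, of which 2 were called higher and 1 lower (34.1% and 32.9% of all genes). Their median log2 fold change there was 0.68, so the fall of the sum was not a fall of most tested markers. The part of these markers in the level of Dysf was not tested. Exons of other genes covered 5.49% of the Dysf exons, 0.532% of the Dtna exons and 0% of those of the other 6 genes.

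The difference between sets was itself tested, as the interaction of group and set. Over 12 libraries it passed for 7 of the 8 genes (28.2% of all genes were called in that direction), with the log2 change higher in replicates 3 to 6 by 0.87 (Dmd) to 2.16 (Sgca). In the 3-against-3 test it passed for 4 (6.55% of all genes), namely Sgcb (0.88, edgeR adjusted p = 0.0487), Sgcd (1.33, adjusted p = 0.0404), Dtna (1.85, adjusted p = 0.0303) and Dysf (2.13, adjusted p = 0.0443). Dag1 (1.09, adjusted p = 0.0533) and Sgca (2.13, adjusted p = 0.0556) lay just past the threshold. These were called by DESeq2 (adjusted p = 0.003 for Dag1 and 0.000317 for Sgca). Utrn passed neither (0.22, edgeR adjusted p = 0.103 over 12 libraries). Its 12-library difference did pass with RLE size factors (0.28, adjusted p = 0.0485), no filter (0.29, 0.0451) and limma on FPKM + 1 (0.26, 0.0352). Leaving out sham replicate 2 (0.32, edgeR adjusted p = 0.0337) or MI replicate 1 (0.42, adjusted p = 0.000914) also made it pass. This 3-against-3 call rested on single libraries, as without sham replicate 1 it passed for 0 of the genes and without MI replicate 1 for 7. Sham levels also differed between the sets, with Dag1 in replicates 3 to 6 at 0.307 times, Dysf at 0.358 times and Sgca at 0.391 times its level in replicates 1 and 2, whereas Dmd stood at 1.44 times. The set and anything that came with it cannot be told apart.

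Levels can be compared between genes on the deposited FPKM, which is scaled by gene length. In all 6 sham libraries Sgca had the highest FPKM of the 8 genes, at 159 and 164 in replicates 1 and 2 and 63.0 to 71.0 in replicates 3 to 6. In all 6 MI libraries it stood behind Dag1 and Sgcb and ahead of the other genes. Dtna stood above Sgcd, Utrn and Dmd in sham replicates 1 and 2, at 29.8 ± 2.52 FPKM (SD, n = 2), and below all the others in MI, at 4.64 ± 1.41 FPKM. Dmd and Utrn were last in sham of replicates 1 and 2, with 7.65 ± 0.559 FPKM for Dmd and 8.12 ± 0.424 FPKM for Utrn (SD, n = 2), which do not differ beyond that spread. Sgcd was last in all libraries of replicates 3 to 6, at 10.1 to 12.1 FPKM. The FPKM of the highest gene was 20.4 and 22.0 times that of the lowest in sham of replicates 1 and 2 and 10.4 and 14.9 times in MI, and 5.78 to 6.69 times in sham and 4.28 to 4.98 times in MI of replicates 3 to 6.

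Ratios of genes within a library do not depend on the scaling between libraries, and 16 such ratios were tested with exact two-sided permutation tests, the adjusted p being over these 16. Sgce, epsilon-sarcoglycan, is the more broadly expressed relative of Sgca and can take its place in the complex. The FPKM of Sgce was 0.0809 and 0.092 times that of Sgca in sham replicates 1 and 2 and 1.82 and 3.32 times in MI, and 0.209 to 0.271 times in sham and 0.917 to 1.05 times in MI in replicates 3 to 6. All 6 MI ratios lay above all 6 sham ratios, with a mean log2 difference of 2.96 (exact permutation p = 0.00216, adjusted 0.00346). Sgce itself rose by 0.74 on the log2 scale (SE 0.09, edgeR adjusted p = 1.67e-05).

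The FPKM of Sgcd over Sgcb was 0.21 to 0.275 in sham and 0.163 to 0.233 in MI over all libraries, with overlap and a log2 difference of -0.22 that did not pass (exact permutation p = 0.0563, adjusted 0.0693).

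Utrophin stood higher beside dystrophin in MI than in sham libraries of each set. Utrn over Dmd was 1.05 and 1.08 in sham and 1.47 and 1.55 in MI in replicates 1 and 2, and 0.704 to 0.8 in sham and 0.923 to 0.951 in MI in replicates 3 to 6 (exact permutation p = 0.333 and 0.0286, each the smallest its design allows). Over 12 libraries the groups overlapped and the log2 difference of 0.38 did not pass (exact permutation p = 0.0541, adjusted 0.0693). On CPM in place of FPKM it was 0.44 with p = 0.0108 by the same exact permutation test. Dtna over Dmd fell from 3.49 and 4.36 to 0.586 and 0.799 in replicates 1 and 2, and from 1.48 to 1.86 to 0.974 to 1.02 in replicates 3 to 6 (log2 difference -1.32, exact permutation p = 0.00216). These FPKM ratios include the gene lengths estimated for each library, described below. In replicates 1 and 2 the MI lengths were 0.794 times those of sham for Dmd and 1.45 times for Dtna, so the fall is smaller on CPM. Dysf over Dmd went down by 1.12 in replicates 1 and 2 and up by 0.55 in replicates 3 to 6 on the log2 scale, and its 12-library difference was -0.01. Dag1 over Dmd did not pass (-0.31, exact permutation p = 0.561), and stood at 13.3 to 14.6 in sham replicates 1 and 2 but 1.90 to 2.38 in sham replicates 3 to 6.

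Myoferlin (Myof), the ferlin relative of dysferlin in myoblasts and non-muscle cells, rose beside it. The FPKM of Myof was 0.0467 and 0.0474 times that of Dysf in sham and 1.13 and 2.87 times in MI in replicates 1 and 2, and 0.144 to 0.205 against 0.608 to 0.652 times in replicates 3 to 6. All 6 MI ratios were above all sham ratios (log2 difference 3.0, exact permutation p = 0.00216, adjusted 0.00346). Myof rose, from 1.69 and 1.65 FPKM to 20.9 and 31.0 FPKM in replicates 1 and 2 and from 2.17 to 2.81 to 15.6 to 16.4 FPKM in replicates 3 to 6. In the 3-against-3 test the smallest p the design allows is 0.1, which Sgce over Sgca, Dtna over Dmd and Myof over Dysf all reached.

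**Figure D3:**
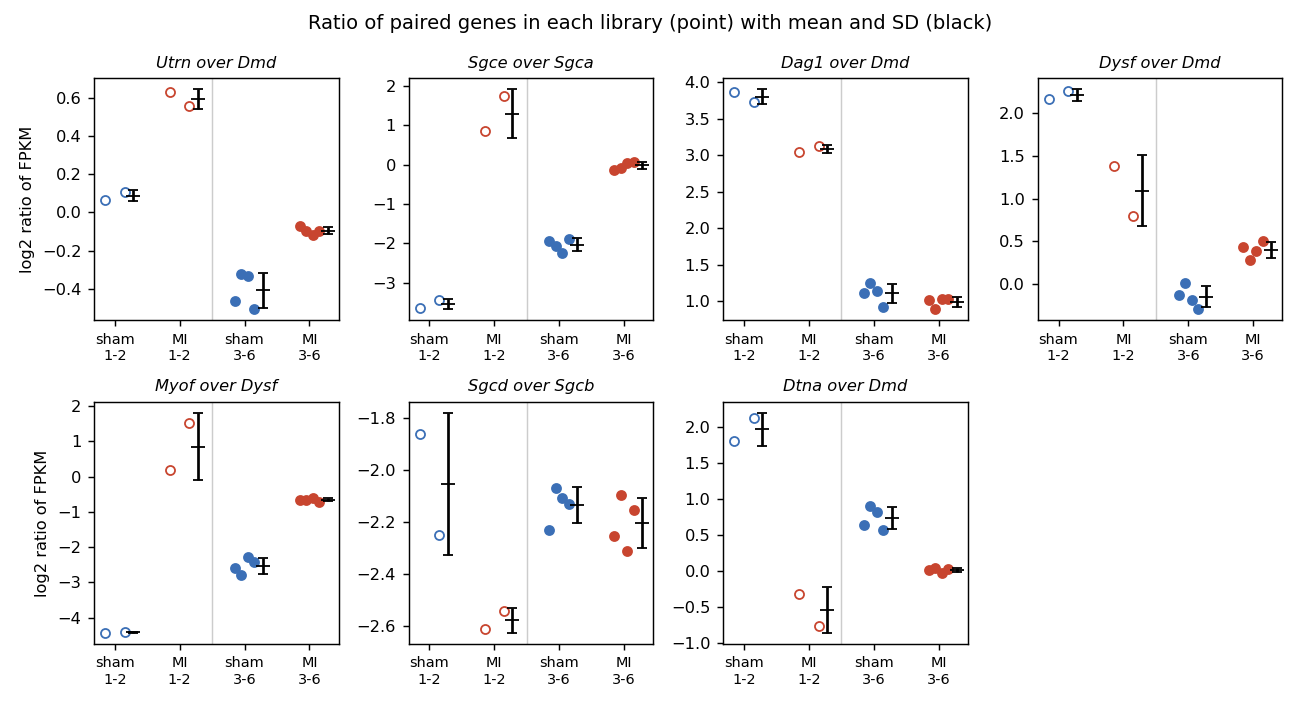
Log2 ratio of FPKM of paired genes in each library (y axis, its own range per panel) by group and replicate set (x axis), with sham in blue, MI in red and the mean and SD in black. Sgce over Sgca and Myof over Dysf are higher in all 6 MI libraries, while Dtna over Dmd is lower.

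Set against the geometric mean FPKM of the 14 cardiomyocyte markers, nearly all of the genes stood higher after MI, since the markers fell further. The markers' median log2 fold change was -2.46 over 12 libraries, with -3.99 for replicates 1 and 2 and -1.77 for replicates 3 to 6. Dmd over the markers was higher in all 6 MI libraries by 2.14 on the log2 scale (exact permutation p = 0.00216, adjusted 0.00346), and so were Utrn (2.52), Dysf (2.14), Sgcb (1.92), Sgcd (1.70) and Dtna (0.83), with the same p. That p counts replicates 3 to 6 as separate libraries and does not account for the set. With replicates 3 to 6 averaged into 1 value per group, each had exact permutation p = 0.1, the smallest that design allows. Dag1 was higher by 1.83 with overlap over 12 libraries (exact permutation p = 0.0281, adjusted 0.0409), and without overlap in each set. This 12-library result did not hold without any 1 of sham replicates 3 to 6 (exact permutation p = 0.0714 each). It did not pass 3 against 3 either (exact permutation p = 0.2). Sgca differed least, at 0.0482 and 0.0499 times the marker mean in sham and 0.0494 and 0.0676 times in MI in replicates 1 and 2. It was, in replicates 3 to 6, at 0.0197 to 0.022 times in sham and 0.0225 to 0.026 times in MI. Its log2 difference was 0.22 in replicates 3 to 6, where MI lay above sham (exact permutation p = 0.0286, the smallest that design allows), and 0.24 with overlap in replicates 1 and 2 (p = 0.667 by the same exact permutation test). Over 12 libraries, a test that does not account for the set, the difference of 0.22 did not pass (exact permutation p = 0.532). The Dysf and Dtna differences were also close in both sets, at 2.21 and 2.10 and at 0.82 and 0.83. Whether the RNA behind the higher ratios lay in myocytes or in other cells cannot be told apart in whole tissue.

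**Figure D4:**
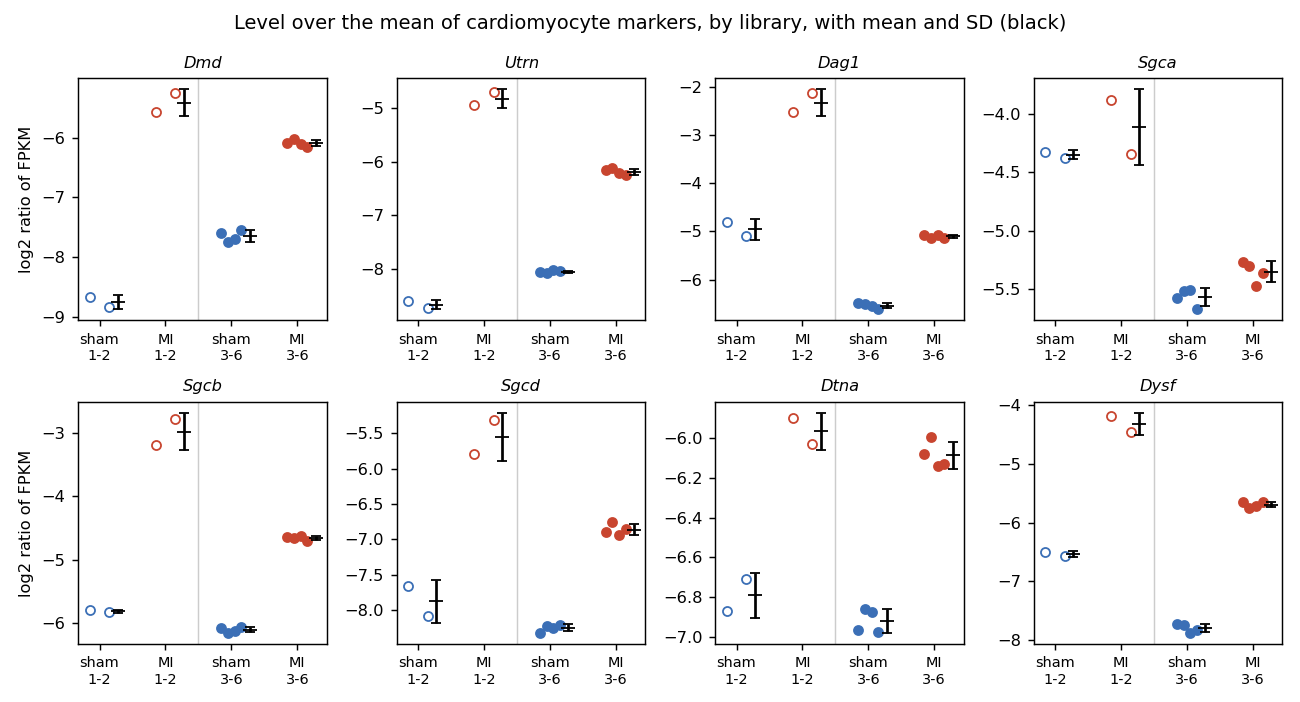
Log2 ratio of each gene's FPKM to the geometric mean FPKM of 14 cardiomyocyte markers in each library (y axis, its own range per panel) by group and replicate set (x axis), with sham in blue, MI in red and the mean and SD in black. Sgca moves little with MI within either set, whereas Dmd, Utrn, Sgcb, Sgcd, Dtna and Dysf are higher in every MI library than in every sham library.

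A further readout came from dividing counts by FPKM, which gives the effective length that the authors' estimation assigned to a gene in a library, and which shifts when the estimated mix of transcripts shifts. This measure was chosen after the values were seen and is given with no test. For Dmd, which is read from a long muscle form and from short forms with internal starts, it was 7.30 and 6.62 kb in sham and 5.83 and 5.22 kb in MI in replicates 1 and 2. The ratio of MI to sham was 0.794, and 0.124% of 5627 genes with at least 200 counts in every library had a lower one. In replicates 3 to 6 it was 4.86 to 5.06 kb in sham and 4.98 to 5.15 kb in MI, with overlapping ranges. For Dtna the length went up in both sets, from 2.50 and 2.18 to 3.28 and 3.51 kb and from 2.67 to 2.77 to 2.99 to 3.07 kb. Its ratio of 1.45 stood above that of 99.9% of these genes in replicates 1 and 2 and its ratio of 1.10 above 98.9% in replicates 3 to 6. For Dag1, Sgcb, Sgca, Sgcd, Utrn and Dysf the ratio lay between 0.961 and 1.03 in both sets. The lowest were Utrn (0.961, with 2.17% of genes below it) and Sgca (0.970, with 2.77% below) in replicates 3 to 6. Lengths of Utrn there were 5.56 to 5.76 kb in sham and 5.39 to 5.54 kb in MI, and did not overlap.

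The genes with the most similar profiles were found among 13646 others by the root mean square difference of centred log2 CPM over 12 libraries. Sgca lay near to Myh6 (0.13), Dtna nearest to Cryab (0.09) and Dnaja4 (0.09), and Dmd to Slmap (0.11) and Tfpi (0.14). Sgcb lay nearest to Exoc3 (0.06) and Oxsr1 (0.07), Sgcd to Cep68 (0.05) and Ldha (0.10), and Dag1 to Pigo (0.11) and Mgat4b (0.11). Utrn lay nearest to Ptprb (0.06), a phosphatase of endothelial cells, and Apc (0.07). Summed endothelial markers went from 1552 to 1819 CPM in sham to 785 to 832 CPM in MI in replicates 1 and 2. In replicates 3 to 6 their sum went from 3119 to 3204 to 1876 to 1911 CPM, and 0 of 10 were at 0 in either set. Of the 10, 8 were called lower and 0 higher in replicates 1 and 2 (32.9% and 34.1% of all genes). In replicates 3 to 6, 4 were called higher and 4 lower (42.2% and 39.5% of all genes). The median log2 fold change there was 0.05, so the lower sum does not stand for the whole list. The part of these markers in the level of Utrn was not tested. Dysf had no neighbour as close, with Ntsr2 and Des both at 0.20. These distances describe 12 libraries that share the difference between sets, and carry no test.

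Among 14 other subunits, relatives and partners of the complex, 10 entered both tests. Of these 3 rose, 2 fell and 5 passed neither way (28.1% of all genes rose and 29.8% fell). The median log2 fold change was 0.28. Sgce rose, as given above, and so did Drp2, a dystrophin relative of Schwann cells (1.74, SE 0.23), from 0.06 to 0.13 FPKM in all sham libraries to 0.29 to 0.48 FPKM in MI. Summed Schwann markers went from 25.1 to 25.3 CPM in sham to 53.5 to 76.1 CPM in MI in replicates 1 and 2, and from 39.7 to 41.1 to 34.1 to 38.5 CPM in replicates 3 to 6, with no listed marker at 0 in a whole group. Of 8 Schwann markers tested in replicates 1 and 2, 6 were called higher and 0 lower (34.1% and 32.9% of all genes). Of 7 tested in replicates 3 to 6, 3 were called higher and 3 lower (42.2% and 39.5% of all genes). Their median log2 fold change there was 0.08, so the lower sum does not stand for the whole list. The part of these markers in the level of Drp2 was not tested. Sspn, sarcospan of the sarcoglycan subcomplex, was the most abundant of those not called (-0.49, SE 0.22). It had -1.50 (SE 0.17) in replicates 1 and 2 and 0.05 (SE 0.03) in replicates 3 to 6. Of the beta syntrophins Sntb2 rose (0.69), while Sntb1 (0.65) was not called, being at -1.06 for replicates 1 and 2 and 1.61 for replicates 3 to 6. These syntrophin values were picked out after they were seen.

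Of the enzymes that build the laminin-binding sugar chain of dystroglycan, 8 fell, 2 rose and 8 were not called out of 18 tested, with a median log2 fold change of -0.38. Of all genes 29.8% fell and 28.1% rose. Dpm1, of the mannose donor synthase, fell (-1.07, SE 0.06), while Gmppb, of GDP-mannose supply, rose (0.97, SE 0.08). Exons of other genes overlap those of both, 33.6% of them for Gmppb, so both values are uncertain. Dpm3 was the most abundant not called (0.03, SE 0.10). Of the matrix ligands 7 of 11 tested rose, 1 fell and 3 were not called, with the same shares over all genes. No test compared the lists. Bgn, biglycan, rose (2.95, SE 0.15), Agrn, agrin, rose (1.35, SE 0.09) and Egflam, pikachurin, fell (-1.86, SE 0.10). Lamb2, a laminin chain, was the most abundant not called (-0.26, SE 0.14). With library size alone the split of all genes moved from 5180 higher and 5186 lower to 7779 higher and 3208 lower, so the sign of a small change in these lists depends on TMM scaling.

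The integrin side of the costamere, the other link between sarcomere and matrix, held genes of either direction. Of 22 tested 7 rose, 8 fell and 7 were not called, near the shares of all genes (28.1% rose and 29.8% fell). The median log2 fold change was -0.20. Parva, parvin alpha of the integrin-linked kinase complex, rose (0.91, SE 0.05), as did Tln1, talin (0.77, SE 0.06), and Krt8, a keratin (2.25, SE 0.21). Des, desmin, was the most abundant not called (-0.41, SE 0.24). Of 19 tested partners and relatives of dysferlin in membrane repair 7 rose, 6 fell and 6 were not called, again near those shares. Anxa2 (1.96, SE 0.08) and Anxa5 (1.03, SE 0.09), annexins that bind damaged membrane, and Myof (2.70, SE 0.20) rose. Cavin1, a caveolar coat protein, was the most abundant not called (-0.16, SE 0.12). Summed macrophage markers, as a sign of other cells, went from 595 to 606 CPM to 3762 to 5640 CPM in replicates 1 and 2 and from 998 to 1036 to 3496 to 3611 CPM in replicates 3 to 6. Their part in these rises was not tested.

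**Figure D5:**
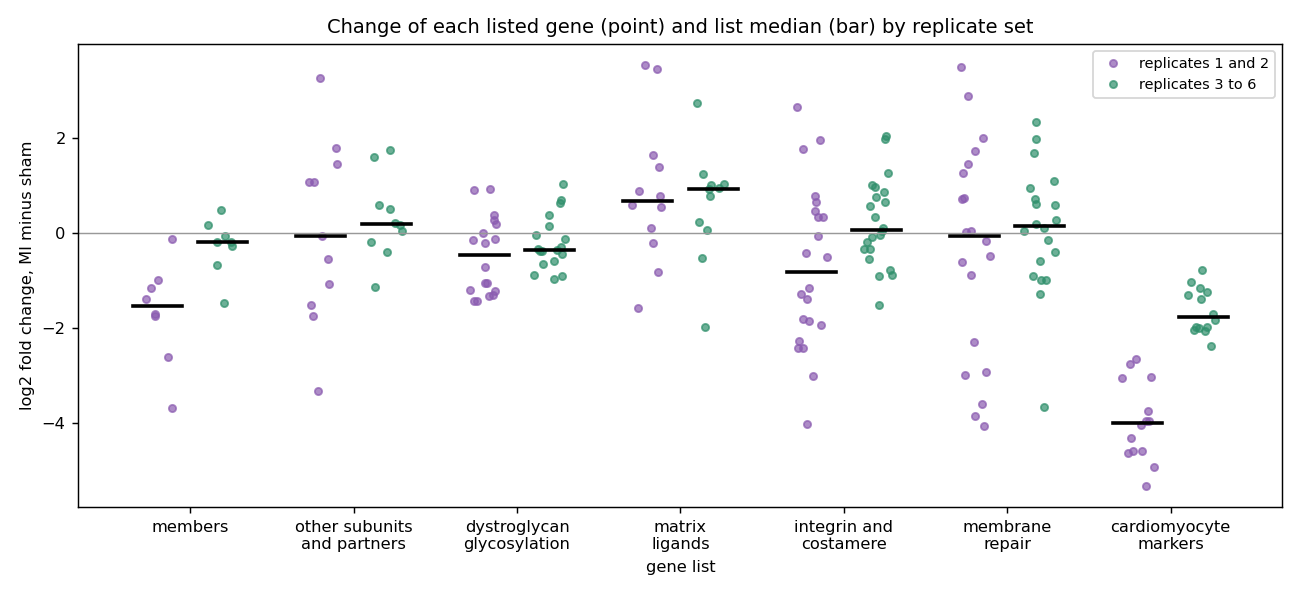
Log2 fold change of MI minus sham (y axis) for each tested gene of 7 lists (x axis), in replicates 1 and 2 (purple) and replicates 3 to 6 (green), with the list median as a black bar. The medians of the 8 genes are -1.53 and -0.19, and those of the cardiomyocyte markers are -3.99 and -1.77.

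The separate table of FPKM that the authors deposited for replicates 1 and 2 gave the same order of change in those libraries. Its values for the 8 genes were 0.835 to 1.32 times those of the table of all libraries. The log2 ratio of MI to sham mean FPKM was -3.20 for Sgca and -2.62 for Dtna there, against -3.22 and -2.68 in the main table. The largest gap was for Sgcd, with -0.92 against -1.23.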

How the data were processed

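RNA from left ventricles of wild type mice at day 7 after sham surgery or MI was measured in 6 libraries per group. Per the labels' protocols, mRNA was enriched with oligo(dT), and whether strand was kept is unstated. The submitters' processing notes name Bowtie2, RSEM and DESeq2 for replicates 3 to 6, no tool for replicates 1 and 2, and GRCm38 for all. The expected counts deposited by the authors are unscaled RSEM-type estimates, and their deposited FPKM and TPM are scaled by gene length and to a common total. Of 18050 genes, 425 are blank in replicates 1 and 2 and entered tests of replicates 3 to 6 only.

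Rounded expected counts were tested with edgeR 4.0.16 in R 4.3.3 (quasi-likelihood test; genes kept by filterByExpr; TMM-scaled) with a term for the set, over 12 libraries, 3 against 3, within each set and for the interaction of set and group, with p-values adjusted over all genes tested. CPM are TMM-scaled. The SE of a log2 fold change is its size over the square root of F. The 12-library and 3-against-3 tests of MI against sham were checked on simulated data first, and the other tests were not. The simulation changed 200 genes, as many up as down, whereas 5180 and 5186 genes were called here over 12 libraries. It therefore cannot check the TMM scaling. Its coefficient of variation in replicates 1 and 2 was 0.15, below the 0.192 of MI there. Alternatives covered scaling, filters, DESeq2 1.42.0, limma 3.58.1 on log2 FPKM, single libraries left out and a replicate block. Same-numbered sham and MI libraries barely deviated together (correlations -0.0392 to 0.0595), and numbers were not taken as pairs. These correlations cannot decide the question. In replicates 1 and 2 the own number was the best match. With 2 libraries per group, however, deviations from the group mean mirror each other, so both numbers must share the same correlation (0.0595). Members and gene lists were chosen with earlier results of these data known. Beside the 8 members, the text names the 3 genes of each of 5 lists with the smallest adjusted p and the most abundant gene not called, ratio partners and nearest profiles. Some genes that this rule names, and 1 of the 16 ratios, are not reported here. Gene positions came from GENCODE annotation of GRCm38.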

Additional observations from a re-analysis of the deposited data

Results flagged for a closer look

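The change after MI differed between the sets for 7 genes in the 12-library test of the interaction (edgeR quasi-likelihood test). The log2 change was higher in replicates 3 to 6 than in replicates 1 and 2 by 0.87 for Dmd, 1.12 for Dag1, 2.16 for Sgca, 0.91 for Sgcb, 1.36 for Sgcd, 1.88 for Dtna and 2.15 for Dysf. In the 3-against-3 test it also passed for Sgcb (0.88), Sgcd (1.33), Dtna (1.85) and Dysf (2.13). Summed cardiomyocyte markers fell from 128536 to 130250 CPM to 7342 to 12055 CPM in replicates 1 and 2, but from 117125 to 119333 CPM to 36335 to 37009 CPM in replicates 3 to 6, and their part in these differences was not tested.

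Single libraries stood apart from the rest of their group in 3 of 96 groups of values examined, where chance flags about 1 in 20. The MI replicate 4 library had the highest Dmd level of MI replicates 3 to 6, at 88.8 CPM, and the lowest log2 ratio of Dag1 over Dmd there, at 0.90. The sham replicate 1 library had the highest log2 ratio of Sgcd over the cardiomyocyte markers among the 6 sham libraries, at -7.66.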

How the results depend on the processing

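Over 12 libraries the genes called were 5180 higher and 5186 lower, and of the 8 members 0 and 6. With library size alone 7779 and 3208 genes, and 1 and 2 members, were called. With limma on log2(FPKM + 1), (FPKM + 0.1) and (FPKM + 0.01), 3270, 3235 and 3223 genes were lower, and 1 member was higher and 2 lower in each. Asking for at least a 2-fold change left 2478 genes higher and 2206 lower, and 2 members lower. In the 3-against-3 test (3934 higher, 4126 lower, 0 and 6 members), library size alone gave 6430 and 2534 genes and 1 and 2 members. The FPKM tests gave 6304, 6364 and 6271 genes higher and 2586, 2539 and 2489 lower, with 2 members lower in each. In replicates 1 and 2 genes lower went from 4635 to 3023 and 2948 with the smaller pseudocounts. In replicates 3 to 6 genes lower went from 5453 to 3598 with library size alone and to 3546, 3512 and 3503 with FPKM, and members to 5 higher and 2 lower in all 4. For the difference between sets in the 3-against-3 test (915 higher, 536 lower, 4 members), no filter left 313 genes lower and 1 member. FPKM + 1 left 608 genes higher and 1 member, and the smaller pseudocounts left 3 genes higher, 0 lower and 0 members by limma. By both tests 6 members fell. With library size alone 2 fell and 1 rose, and with each FPKM test 2 fell.

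Directions changed as follows. With library size alone the log2 change became 0.019 for Dmd and 0.14 for Dysf over 12 libraries, and 0.40 for Utrn in the 3-against-3 test. It became 0.34 for Utrn in replicates 1 and 2, and 0.29 for Dmd, 0.15 for Dag1, 0.17 for Sgcb and 0.075 for Sgcd in replicates 3 to 6. With FPKM and pseudocounts of 1, 0.1 and 0.01, in that order, the same results became 0.10, 0.10 and 0.10 for Dmd and 0.091, 0.097 and 0.098 for Dysf over 12 libraries. Utrn became 0.36, 0.39 and 0.39 in the 3-against-3 test and 0.27, 0.30 and 0.30 in replicates 1 and 2. In replicates 3 to 6 Dmd became 0.25, 0.26 and 0.26, Dag1 0.14, 0.15 and 0.15, Sgcb 0.16, 0.16 and 0.16, and Sgcd 0.087, 0.094 and 0.095. Scaling by library size and the FPKM share the shift of the median of all genes given above. What else moves these values was not tested.

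Leaving out each library in turn gave 0 to 1 members higher over 12 libraries, with Dysf from -0.38 to 0.069. In the 3-against-3 test it gave 2301 to 3979 genes higher, 1 to 6 members lower, and Utrn from -0.090 to 0.091, and in replicates 1 and 2 Utrn from -0.28 to 0.029. The difference between sets in that test ran from 1 to 1792 genes higher, 0 to 1200 lower and 0 to 7 members. By both tests 1 to 6 members fell. The log2 ratio of Utrn over Dmd ran from 0.28 to 0.45, Dag1 over Dmd from -0.60 to 0.059, Dysf over Dmd from -0.19 to 0.32, Sgcd over Sgcb from -0.27 to -0.16 and Dag1 over the cardiomyocyte markers from 1.42 to 2.07. On CPM, Utrn over Dmd (0.44) and Sgcd over Sgcb (-0.23) passed and Dysf over Dmd was 0.089. CPM ratios differ from FPKM ratios by more than a constant, as effective lengths vary between libraries.

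With a replicate block 4 members fell by both tests, as Dmd (-0.39, edgeR adjusted p = 0.0635 over 12 libraries) and Dag1 (-1.01, adjusted p = 0.0534 in the 3-against-3 test) were no longer called, and no other call of a member by both tests changed. Whether replicate numbers pair the samples is not known here, so the calls of Dmd and Dag1 depend on leaving out the block.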
